A study of Mus musculus with 30 samples.

Results

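The genes described here encode collagens and other proteins of the extracellular matrix of fat, together with the enzymes that process and crosslink collagen. They were taken from a list of 46 gene symbols that was written by name and sorted into classes by function: 6 fibrillar collagen chains, 7 other interstitial collagen chains, 14 basement membrane genes, 6 interstitial proteoglycans, 7 elastin and matrix glycoprotein genes and 6 crosslinking and processing enzymes. The list was written with earlier results of these data known. A gene was read from its probe set with exactly 1 gene symbol and the highest mean, and 45 of the 46 had one. The lysyl oxidase-like gene Loxl2 shares its probe sets with another symbol and was not measured separately. In all, 41345 probe sets were tested, which gave 22180 genes a probe set of their own.

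RNA came from gonadal white adipose tissue of wild-type male C57BL6/J mice aged 35 weeks, with 6 arrays, 1 a mouse, in each of 5 groups. Lean mice ate the control diet (10.5% of kcal from fat) throughout, for 27 weeks, and obese mice ate the high-fat, high-sucrose diet (HFD, 58% of kcal from fat) for 27 weeks. Formerly obese mice ate HFD for 20 weeks and then the control diet for 7 weeks. Lean-HFD mice were lean mice given HFD for the last 48 h, and formerly obese-HFD mice were formerly obese mice given HFD for the last 48 h. The tissue holds adipocytes together with stromal, vascular and immune cells, and in such bulk samples fewer cells of a type and less RNA per cell cannot be told apart.

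Each adipocyte lies in a basement membrane of collagen IV, laminins, nidogens and perlecan, and a looser network of fibrillar collagens, collagen VI and small proteoglycans lies between the cells. Fibroblasts and their precursors make most of the fibrillar matrix. Collagen chains are hydroxylated in the cell, trimmed outside it by proteinases, and joined by lysyl oxidases into fibres that resist stretch. The collagen network of fat is known to grow in obesity, and the question asked of these arrays was which of the genes differed with obesity, after weight loss, and with 48 h of HFD in lean and formerly obese mice.

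The start regions of 4 members are printed because they stand for the members that were higher together in obese mice (Col1a2, Col3a1 and Col6a1) and for 1 that was not (Fmod). Each is the 150 bases before the RefSeq transcript start in mouse build GRCm38.p6, on the strand of the gene, and no annotated gene overlaps any of the 4 windows. Capitals mark 3 short motifs found in many promoters, searched on both strands. They are the CCAAT box, searched as the letters CCAAT, the core of the GC box, searched as GGGCGG, and the TATA box, searched as TATAAA. No motif overlaps another in the 4 windows.
Col1a2 (chr6:4505468-4505617, plus strand): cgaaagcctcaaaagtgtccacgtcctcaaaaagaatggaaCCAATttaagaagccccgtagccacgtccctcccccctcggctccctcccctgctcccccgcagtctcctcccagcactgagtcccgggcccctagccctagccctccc
Col3a1 (chr1:45311388-45311537, plus strand): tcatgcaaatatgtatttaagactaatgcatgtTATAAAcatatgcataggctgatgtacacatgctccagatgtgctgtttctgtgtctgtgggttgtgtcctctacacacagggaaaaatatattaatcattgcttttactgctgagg
Col6a1 (chr10:76726045-76726194, minus strand): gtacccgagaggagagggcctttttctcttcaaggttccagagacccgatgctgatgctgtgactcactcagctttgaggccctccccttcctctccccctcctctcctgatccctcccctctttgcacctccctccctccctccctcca
Fmod (chr1:134037104-134037253, plus strand): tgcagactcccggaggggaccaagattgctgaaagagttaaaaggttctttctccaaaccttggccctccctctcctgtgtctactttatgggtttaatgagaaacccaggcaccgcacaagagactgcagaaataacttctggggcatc

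The table of start regions held 33 windows for 29 of the 46 genes. CCAAT stood in 8 of the 33 windows (24.2%) and in 24.5% of all 32851 windows of the same length. GGGCGG stood in 39.4% of the members' windows and 28.6% of all windows, and TATAAA in 12.1% and 7.57%. These shares describe letters in short windows, and members that were higher together held different ones: Col1a2 carried a CCAAT, Col3a1 a TATAAA, and Col6a1 none of the 3.

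Levels are given below on the log2 scale as the lowest, the median and the highest of the 6 arrays of a group, and a difference of 1 on this scale is a 2-fold change. Differences are group means subtracted, ± the SE of the limma fit. A gene is called, and said to have risen or fallen, where its Benjamini-Hochberg adjusted p over all 41345 probe sets was under 0.10, its fold was over 1.3 and its mean level was over 16 (4 on the log2 scale) in at least 1 of the groups compared.

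In obese vs lean mice, 19 of the 45 matrix genes rose and none fell, while 3.93% of all probe sets rose and 2.11% fell. The median difference was 0.26 over the 45 genes and -0.02 over all probe sets, and 36 of the 45 were higher in obese mice. Of the 19, 15 had every obese array above every lean array. Their call on the same arrays favours this, and the share over all probe sets was not counted. The 19 lay in all 6 classes: 4 of 6 fibrillar collagen chains, 5 of 7 other interstitial collagen chains, 3 of 14 basement membrane genes, 2 of 6 proteoglycans, 2 of 7 glycoproteins and 3 of 5 enzymes. In formerly obese vs lean mice none of the 45 was called, nor was any other probe set (0%). The study, with the same limits on fold and adjusted p, did report genes for this comparison, among them Fbn1, which is outside the 45. Of the 45, 10 had an unadjusted p under 0.05 in the limma test, as had 6.92% of all probe sets. In formerly obese vs obese mice, 23 of the 45 fell and 2 rose, against 3.17% and 2.02% of all probe sets. The last comparison uses the same obese arrays as the first, so their values are given side by side.

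**Figure D1:**
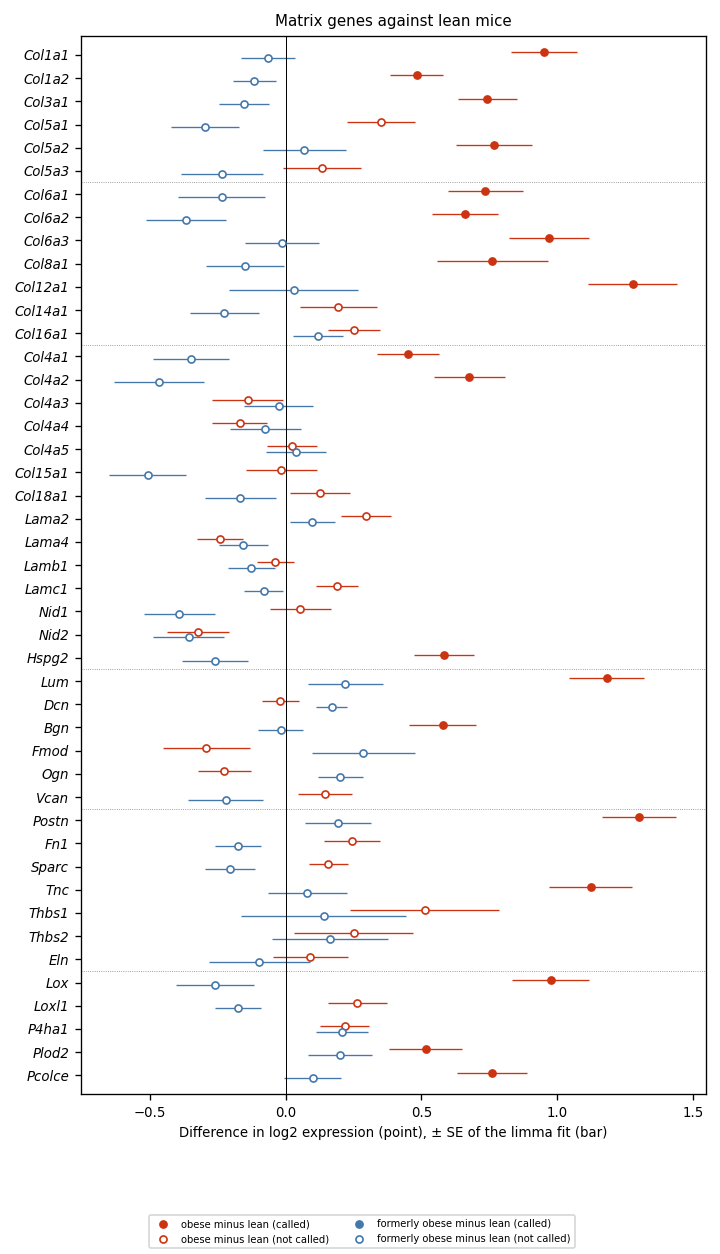
Difference in log2 expression from lean mice for each of the 45 matrix genes (vertical axis, by class, dotted lines between classes) in obese (red) and formerly obese (blue) mice, with points for limma estimates, bars for ± SE and filled points for called genes. The 19 filled red points run from 0.45 (Col4a1) to 1.3 (Postn), and every blue point is open, between -0.51 (Col15a1) and 0.29 (Fmod).

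The fibrillar collagens form the tensile fibres of connective tissue, with collagens I and III as the bulk and collagen V inside the fibrils. Col1a1, one chain of collagen I, lay at 6.57, 6.74 and 7.07 in lean mice, 7.54, 7.68 and 8.15 in obese mice and 6.59, 6.67 and 6.90 in formerly obese mice. The obese arrays stood wholly above those of both other groups, and Col1a1 differed by 0.95 ± 0.12 (limma adjusted p = 0.000834) in obese vs lean, by -0.07 ± 0.10 (limma adjusted p = 0.937) in formerly obese vs lean and by -1.02 ± 0.11 (limma adjusted p = 0.000695) in formerly obese vs obese. The 95% interval of the formerly obese vs lean difference ran from -0.28 to 0.15.

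Col3a1, the chain of collagen III, lay at 8.53, 8.84 and 8.88 in lean mice, 9.24, 9.54 and 9.90 in obese mice and 8.34, 8.65 and 8.81 in formerly obese mice. Every obese array was again above every lean and formerly obese array, with differences of 0.74 ± 0.11 (limma adjusted p = 0.00179) from lean and -0.89 ± 0.11 (limma adjusted p = 0.00137) for formerly obese vs obese. Lean replicate 2 and formerly obese replicate 5 were each set apart below their groups. Col1a2, the other chain of collagen I, had the smallest rise of the 4 called chains at 0.48 ± 0.10 (limma adjusted p = 0.0105), from levels of 10.71, 10.88 and 11.00 in lean mice, 11.14, 11.37 and 11.58 in obese mice and 10.57, 10.75 and 10.95 in formerly obese mice. A second Col1a2 probe set of lower mean gave 0.42 ± 0.12 (limma adjusted p = 0.0735) for obese vs lean and -0.51 ± 0.13 (limma adjusted p = 0.043) for formerly obese vs obese, and was called in both.

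The collagen V chains were uneven. Col5a2 lay at 5.81, 6.19 and 6.70 in lean mice, 6.78, 6.90 and 7.21 in obese mice and 5.90, 6.26 and 6.57 in formerly obese mice, with no overlap of obese with lean, and rose by 0.77 ± 0.14 (limma adjusted p = 0.00616). Col5a1 lay at 6.07, 6.36 and 6.75 in lean mice, 6.36, 6.80 and 6.85 in obese mice and 5.71, 6.15 and 6.23 in formerly obese mice and differed by 0.35 ± 0.13 (limma adjusted p = 0.139) in obese vs lean, which missed the call, and by -0.65 ± 0.11 (limma adjusted p = 0.00631) in formerly obese vs obese, which passed it. A second Col5a1 probe set gave -0.16 ± 0.10 (limma adjusted p = 0.441) there and was not called, so that this fall rests on 1 of its probe sets. In obese vs lean mice Col5a1 was called as a rise without lean replicate 5 (limma adjusted p = 0.0564) or obese replicate 2 (limma adjusted p = 0.0655). Col5a3 was at 5.71, 6.19 and 6.53 in lean mice, 6.08, 6.33 and 6.68 in obese mice and 5.57, 6.05 and 6.21 in formerly obese mice and was called in neither comparison (0.13 ± 0.14 (limma adjusted p = 0.702) and -0.37 ± 0.13 (limma adjusted p = 0.143)).

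The other interstitial collagens comprise the 3 collagen VI chains, which make beaded filaments around adipocytes, and chains that network or decorate the fibrils. Col6a3 lay at 7.22, 7.58 and 8.11 in lean mice, 8.28, 8.67 and 8.81 in obese mice and 7.38, 7.59 and 7.88 in formerly obese mice. The lowest obese array was above the highest lean and formerly obese arrays. Its differences were 0.97 ± 0.15 (limma adjusted p = 0.00211) in obese vs lean, -0.98 ± 0.11 (limma adjusted p = 0.000737) in formerly obese vs obese, and -0.01 ± 0.14 in formerly obese vs lean (95% interval -0.31 to 0.28).

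Col6a1 was at 9.23, 9.54 and 10.20 in lean mice, 10.32, 10.37 and 10.50 in obese mice and 9.01, 9.44 and 9.72 in formerly obese mice and rose by 0.73 ± 0.14 (limma adjusted p = 0.00736) in obese mice. Its second probe set gave 0.74 ± 0.16 (limma adjusted p = 0.0154) for the same comparison and was also called. Col6a2 lay at 6.83, 7.10 and 7.53 in lean mice, 7.58, 7.82 and 7.97 in obese mice and 6.32, 6.85 and 7.03 in formerly obese mice, with a rise of 0.66 ± 0.12 (limma adjusted p = 0.00671) and a fall of 1.03 ± 0.13 in formerly obese vs obese mice (limma adjusted p = 0.00112). In formerly obese vs lean mice the 3 chains differed by -0.24 ± 0.16 (Col6a1), -0.37 ± 0.15 (Col6a2) and -0.01 ± 0.14 (Col6a3), none of them called. In all 3 chains obese arrays lay above lean and formerly obese arrays without overlap.

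Col12a1 encodes a fibril-associated collagen that bridges fibrils to their surroundings, and it was the collagen gene of the list with the largest rise. It lay at 4.95, 5.41 and 6.17 in lean mice, 6.49, 6.79 and 6.92 in obese mice and 5.06, 5.41 and 6.37 in formerly obese mice, a difference of 1.28 ± 0.16 (limma adjusted p = 0.000852) from lean, or 2.43-fold. Formerly obese arrays were spread over more than a log2 unit, yet all stood below the obese arrays, with -1.25 ± 0.19 (limma adjusted p = 0.0043) for that comparison and 0.03 ± 0.24 against lean.

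Col8a1, a short-chain collagen of vessel walls and remodelling tissue, was less even, at 6.11, 6.57 and 6.75 in lean mice, 6.59, 7.31 and 7.95 in obese mice and 5.84, 6.42 and 6.65 in formerly obese mice. Obese and lean arrays overlapped. The rise of 0.76 ± 0.20 (limma adjusted p = 0.0456) was lost without obese replicate 3 (limma adjusted p = 0.104). Col14a1 and Col16a1, both fibril-associated, were not called in obese vs lean mice (0.19 ± 0.14 (limma adjusted p = 0.538) and 0.25 ± 0.09 (limma adjusted p = 0.162)), with Col14a1 at 6.32, 6.80 and 6.95 in lean mice, 6.59, 7.01 and 7.25 in obese mice and 6.28, 6.55 and 6.84 in formerly obese mice.

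**Figure D2:**
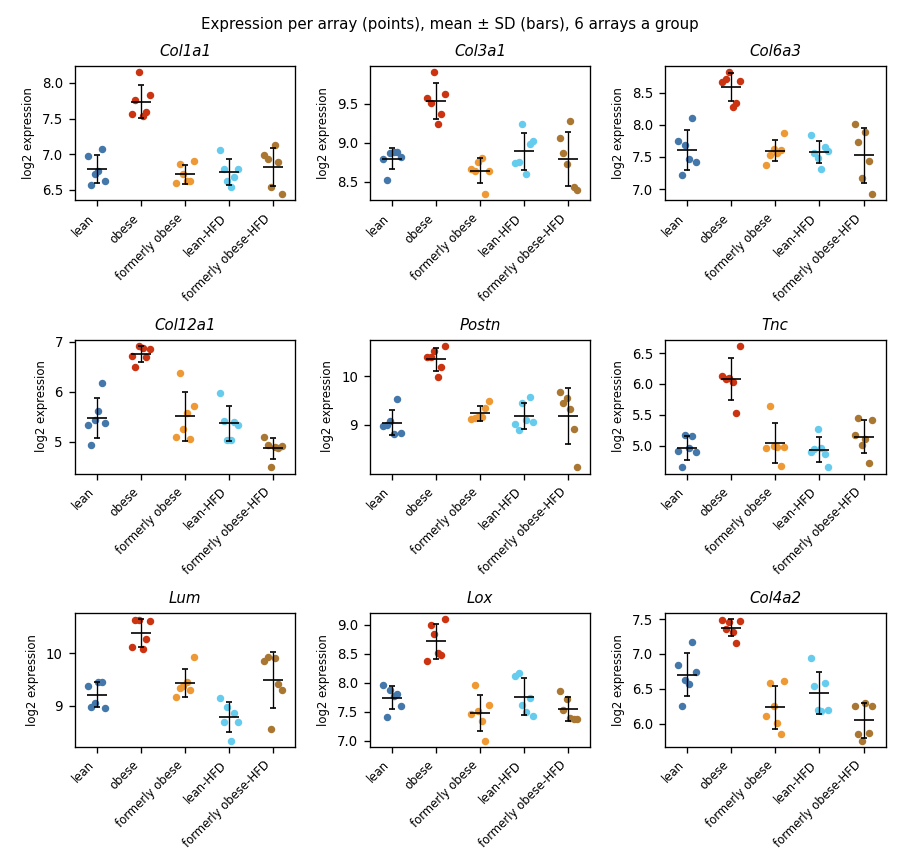
Log2 expression of 9 matrix genes (1 panel each) in each of the 30 arrays, by group along the horizontal axis, with points for arrays and bars for the mean ± SD of 6 arrays. In Col1a1, Col3a1, Col6a3, Col12a1, Lum and Lox the obese arrays lie above all lean and formerly obese arrays, and in Postn the lowest obese array (9.98) lies above the highest lean array (9.54).

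Basement membrane genes were divided. Of the 14, 3 rose in obese mice, 8 were higher and 6 lower, and the median difference was 0.04. Collagen IV chains made from Col4a1 and Col4a2, which assemble with each other, were among the 3. Col4a2 was at 6.26, 6.68 and 7.18 in lean mice, 7.16, 7.41 and 7.49 in obese mice and 5.85, 6.17 and 6.62 in formerly obese mice. The ranges of obese and lean arrays met at 7.16 and 7.17, and the difference was 0.68 ± 0.13 (limma adjusted p = 0.00817). Formerly obese arrays lay below all obese arrays (-1.14 ± 0.13 (limma adjusted p = 0.000877)) and differed from lean by -0.47 ± 0.17 (limma adjusted p = 0.608).

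Col4a1 showed the same order of groups, at 7.31, 7.58 and 7.96 in lean mice, 7.87, 8.06 and 8.26 in obese mice and 6.92, 7.29 and 7.66 in formerly obese mice, with 0.45 ± 0.11 (limma adjusted p = 0.0358) in obese vs lean and -0.80 ± 0.12 (limma adjusted p = 0.00332) in formerly obese vs obese. Perlecan, the heparan sulphate proteoglycan encoded by Hspg2, lay at 8.27, 8.56 and 8.91 in lean mice, 8.97, 9.19 and 9.33 in obese mice and 8.01, 8.31 and 8.55 in formerly obese mice with no overlap of obese with either group. It rose by 0.58 ± 0.11 (limma adjusted p = 0.0079) in obese mice and fell by 0.84 ± 0.09 in formerly obese vs obese mice (limma adjusted p = 0.000737).

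The collagen IV chains Col4a3, Col4a4 and Col4a5, known chiefly from kidney and other specialised membranes, were low, with single arrays between 3.94 and 5.79, and were not called in any comparison. The laminin chains Lama2, Lama4, Lamb1 and Lamc1 differed in obese vs lean mice by 0.29 ± 0.09, -0.24 ± 0.09, -0.04 ± 0.07 and 0.19 ± 0.08. None was called, although Lama2 had a limma adjusted p of 0.0843, because its fold was under 1.3. Lamc1 was at 9.27, 9.42 and 9.53 in lean mice, 9.44, 9.61 and 9.73 in obese mice and 9.18, 9.32 and 9.46 in formerly obese mice.

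The nidogens Nid1 and Nid2 link laminin to collagen IV, and neither rose in obese mice. Nid1 lay at 10.20, 10.53 and 10.75 in lean mice, 10.23, 10.56 and 10.81 in obese mice and 9.71, 10.18 and 10.39 in formerly obese mice and fell by 0.45 ± 0.13 in formerly obese vs obese mice (limma adjusted p = 0.082), a call that was lost in 9 of 12 fits that each left out 1 array and was not made by its second probe set (-0.30 ± 0.10, adjusted p = 0.111). Nid2 was at 7.97, 8.36 and 8.65 in lean mice, 7.79, 8.04 and 8.19 in obese mice and 7.58, 8.04 and 8.19 in formerly obese mice, lower than lean by 0.32 ± 0.12 in obese and 0.36 ± 0.13 in formerly obese mice, neither called (limma adjusted p = 0.138 and 0.614). Without lean replicate 2, Nid2 was called as a fall in obese vs lean mice (-0.40 ± 0.10, limma adjusted p = 0.0494).

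Col18a1 and Col15a1 encode the 2 multiplexin collagens, which carry heparan or chondroitin sulphate chains at the outer face of basement membranes. Col18a1 was at 6.02, 6.40 and 6.85 in lean mice, 6.50, 6.55 and 6.65 in obese mice and 5.90, 6.30 and 6.48 in formerly obese mice, and its difference of -0.29 ± 0.09 in formerly obese vs obese mice had a limma adjusted p of 0.0846 but a fold under 1.3. Col15a1 lay at 7.50, 7.99 and 8.28 in lean mice, 7.71, 7.92 and 8.12 in obese mice and 7.08, 7.46 and 7.60 in formerly obese mice, with -0.02 ± 0.13 (limma adjusted p = 0.969) in obese vs lean, -0.51 ± 0.14 (limma adjusted p = 0.5) in formerly obese vs lean and -0.49 ± 0.10 (limma adjusted p = 0.0179) in formerly obese vs obese. All formerly obese arrays were below all obese arrays, and only the last of these differences was called.

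Among the interstitial proteoglycans, which bind collagen fibrils and growth factors, the small leucine-rich members moved in different directions. Lum (lumican) lay at 8.97, 9.22 and 9.46 in lean mice, 10.09, 10.45 and 10.64 in obese mice and 9.17, 9.37 and 9.94 in formerly obese mice. No obese array overlapped a lean array, and Lum rose by 1.18 ± 0.14 (limma adjusted p = 0.00054), or 2.27-fold. Bgn (biglycan), at 10.59, 10.74 and 10.94 in lean mice, 10.99, 11.32 and 11.65 in obese mice and 10.58, 10.71 and 10.90 in formerly obese mice, rose by 0.58 ± 0.12 (limma adjusted p = 0.0148), and its second probe set by 0.65 ± 0.15 (limma adjusted p = 0.026).

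Dcn (decorin), the closest relative of biglycan, had the smallest within-group spread of the 45 genes. In formerly obese vs lean mice it differed by 0.17 ± 0.06 (limma adjusted p = 0.593), not called, with every formerly obese array above every lean array. It lay at 11.96, 12.02 and 12.09 in lean mice, 11.87, 12.02 and 12.18 in obese mice and 12.16, 12.17 and 12.27 in formerly obese mice, with a difference of -0.02 ± 0.07 in obese vs lean (95% interval -0.17 to 0.13) and a within-group SD of 0.07, against a median of 0.24 over the 45 genes. Fmod (fibromodulin) and Ogn (osteoglycin) had their lowest median in obese mice and their highest in formerly obese mice among these 3 groups. Ogn was at 10.59, 10.82 and 10.92 in lean mice, 10.20, 10.62 and 10.72 in obese mice and 10.86, 10.97 and 11.18 in formerly obese mice, all formerly obese arrays above all obese arrays, and it rose by 0.43 ± 0.10 (limma adjusted p = 0.0241) in formerly obese vs obese mice. That call was lost without obese replicate 5, the array set apart below its group, because the fold then fell under 1.3 (0.35 on the log2 scale).

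Fmod lay at 7.67, 7.99 and 8.73 in lean mice, 7.56, 7.73 and 8.02 in obese mice and 7.78, 8.35 and 8.71 in formerly obese mice. It rose by 0.58 ± 0.15 (limma adjusted p = 0.0446) in formerly obese vs obese mice, with overlapping arrays, and differed by -0.29 ± 0.16 (limma adjusted p = 0.377) in obese vs lean. Its second probe set gave -0.41 ± 0.12 (limma adjusted p = 0.057) for obese vs lean, which passed the call as a fall, and 0.57 ± 0.13 (limma adjusted p = 0.0254) for formerly obese vs obese. Vcan (versican), a large chondroitin sulphate proteoglycan, lay at 7.33, 7.50 and 7.91 in lean mice, 7.48, 7.71 and 7.85 in obese mice and 6.83, 7.38 and 7.61 in formerly obese mice and was called in neither comparison.

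The matrix glycoproteins held the member with the largest rise. Postn (periostin) is a matricellular protein that binds collagen I and is made by activated fibroblasts. It was at 8.82, 8.99 and 9.54 in lean mice, 9.98, 10.39 and 10.62 in obese mice and 9.13, 9.16 and 9.49 in formerly obese mice. Obese arrays did not overlap either group, and the differences were 1.3 ± 0.14 (limma adjusted p = 0.000329) in obese vs lean (2.46-fold), -1.11 ± 0.11 (limma adjusted p = 0.00049) in formerly obese vs obese and 0.19 ± 0.12 (limma adjusted p = 0.81) in formerly obese vs lean.

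Tnc (tenascin C), a glycoprotein of wounds and inflamed tissue, lay at 4.65, 4.94 and 5.17 in lean mice, 5.53, 6.09 and 6.62 in obese mice and 4.67, 4.98 and 5.64 in formerly obese mice. It rose by 1.12 ± 0.15 (limma adjusted p = 0.00117) in obese mice, and formerly obese replicate 2, at 5.64, reached above the lowest obese array. Fn1 (fibronectin) was at 10.45, 10.72 and 10.82 in lean mice, 10.65, 10.95 and 11.20 in obese mice and 10.28, 10.53 and 10.62 in formerly obese mice, with 0.24 ± 0.10 (limma adjusted p = 0.217) in obese vs lean, not called, and -0.42 ± 0.10 (limma adjusted p = 0.0276) in formerly obese vs obese, a call lost without formerly obese replicate 5 or obese replicate 3.

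Sparc, a collagen-binding glycoprotein abundant in fat, was at 10.96, 11.10 and 11.27 in lean mice, 11.17, 11.25 and 11.35 in obese mice and 10.63, 10.88 and 11.09 in formerly obese mice. Its difference of -0.36 ± 0.08 in formerly obese vs obese mice had a limma adjusted p of 0.0259 and a fold under 1.3. Eln (elastin) lay at 6.14, 6.46 and 6.88 in lean mice, 6.27, 6.56 and 6.96 in obese mice and 5.84, 6.45 and 6.93 in formerly obese mice, and the 3 groups overlapped throughout. The thrombospondins Thbs1 and Thbs2 had the largest spread of all members, with within-group SDs of 0.79 and 0.51. Their obese vs lean differences of 0.51 ± 0.27 and 0.25 ± 0.22 were not called.

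Of the enzymes, Lox, the lysyl oxidase that starts crosslinking, lay at 7.42, 7.79 and 7.96 in lean mice, 8.37, 8.67 and 9.10 in obese mice and 7.00, 7.48 and 7.96 in formerly obese mice. No obese array overlapped the other groups. Lox rose by 0.98 ± 0.14 (limma adjusted p = 0.00166) in obese mice and differed by -1.24 ± 0.17 (limma adjusted p = 0.00199) in formerly obese vs obese mice and -0.26 ± 0.14 (limma adjusted p = 0.78) in formerly obese vs lean mice. Its relative Loxl1, linked to elastic fibres, was at 6.72, 7.02 and 7.14 in lean mice, 6.93, 7.27 and 7.53 in obese mice and 6.63, 6.79 and 6.95 in formerly obese mice and was called only in formerly obese vs obese mice (-0.44 ± 0.11 (limma adjusted p = 0.0321)).

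Pcolce, which enhances the proteinase that trims procollagen, lay at 7.54, 7.77 and 8.02 in lean mice, 8.28, 8.47 and 8.90 in obese mice and 7.76, 7.82 and 8.22 in formerly obese mice. It rose by 0.76 ± 0.13 (limma adjusted p = 0.004) without overlap. Plod2, the lysyl hydroxylase whose products favour stable crosslinks, was at 5.86, 6.12 and 6.44 in lean mice, 6.24, 6.65 and 7.08 in obese mice and 6.01, 6.36 and 6.57 in formerly obese mice, with overlapping obese and lean arrays and a rise of 0.52 ± 0.13 (limma adjusted p = 0.0394). In formerly obese vs obese mice Plod2 differed by -0.32 ± 0.14 (limma adjusted p = 0.257), not called. P4ha1, a chain of the prolyl hydroxylase that stabilises the triple helix, was not called (0.22 ± 0.09 (limma adjusted p = 0.213) in obese vs lean).

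Members that lie close together in the genome could be compared, and genes between them were not looked for. Col4a1 and Col4a2 (chromosome 8, with overlapping annotated spans) both rose. So did Col3a1 and Col5a2 (chromosome 1, 24624 bases between them) and Col6a1 and Col6a2 (chromosome 10, 85161 bases). Col4a3 and Col4a4 (chromosome 1, also with overlapping spans) differed by -0.14 ± 0.13 and -0.17 ± 0.10 in obese vs lean mice, neither called. The pair Dcn and Lum (chromosome 10, 47337 bases between them) did not match: -0.02 ± 0.07 for Dcn and 1.18 ± 0.14 for Lum.

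Against lean mice, 23 of the 45 genes were above lean in obese and below lean in formerly obese mice, and 3 (Dcn, Fmod and Ogn) had the reverse signs. A further 13 were above lean in both groups and 6 below lean in both. Both comparisons use the same 6 lean arrays, and the share of all probe sets with each pattern of signs was not counted. Since no formerly obese vs lean difference was called, these signs are a description. The genes of this pattern furthest below lean in formerly obese mice were Col4a2 (-0.47 ± 0.17), Nid1 (-0.39 ± 0.13), Col6a2 (-0.37 ± 0.15) and Col4a1 (-0.35 ± 0.14). A looser rule kept the fold and level but asked for a limma p under 0.01 before adjustment. By it 1 of the 45, Col15a1, was lower in formerly obese than lean mice, where 0.239% of all probe sets were.

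**Figure D3:**
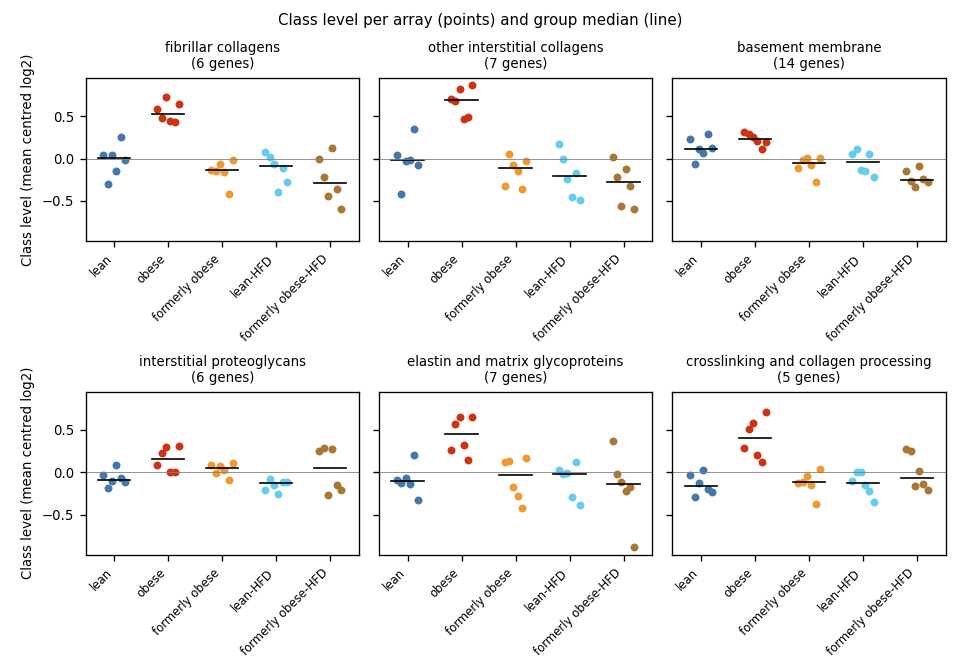
Class level (vertical axis), the average of the class's genes after each was centred on its own mean of the 30 arrays, per array (points) and as the group median (line), in the 5 groups. In fibrillar collagens the 6 obese arrays lie from 0.43 to 0.73 and the other 24 arrays from -0.60 to 0.26, and in basement membrane genes the formerly obese-HFD arrays have the lowest median (-0.26).

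Averaged by class, the levels showed which arrays carried the differences. Obese arrays lay above all other arrays in fibrillar collagens (0.43 to 0.73, against 0.26 at most elsewhere) and in other interstitial collagens (0.46 to 0.86, against 0.35 at most). In basement membrane genes obese arrays (0.11 to 0.31) and lean arrays (-0.07 to 0.29) overlapped. Within groups, single arrays tended to be low across many genes: lean replicate 2 was the lowest lean array for 28 of the 45 genes, formerly obese replicate 5 the lowest of its group for 26, obese replicate 5 for 21, and formerly obese-HFD replicate 6 and lean-HFD replicate 6 for 20 each. In fits that each left out 1 array, between 18 and 20 genes rose in obese vs lean mice and between 21 and 25 fell in formerly obese vs obese mice. The share of all probe sets was not counted in these fits, and was 3.93% and 3.17% with all arrays.

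Transcripts that mark some cell types were also called in the same comparisons. In obese vs lean mice, where 3.93% of all probe sets rose and 2.11% fell, 12 of 18 macrophage markers rose and 1 fell. Their summed level ran from 6726 to 8928 in lean, from 11090 to 19390 in obese and from 7474 to 14660 in formerly obese mice. Such sums are of values on the linear scale, not the log2 scale. Of 12 fibroblast and preadipocyte markers 4 rose (Fap, Pdgfrb, Thy1 and Pi16) and 1 fell (Dpp4), with summed levels of 8385 to 9510 in lean, 7534 to 9659 in obese and 7887 to 9564 in formerly obese mice. Of 14 mature adipocyte markers 1 rose and 4 fell, with sums of 37970 to 43240 in lean and 34470 to 41840 in obese mice, none of the markers at or under the level filter in any group. None of 12 endothelial or 10 mural and smooth muscle markers was called, and 2 of 11 mesothelial markers fell. Of 7 lymph node and B cell markers 1 rose, and of 7 epididymis markers none was called, their summed level running from 105.8 to 5217 in lean and from 86.59 to 5606 in obese mice. In formerly obese vs obese mice 9 of the 18 macrophage markers fell and none rose, 3 of the 12 fibroblast and preadipocyte markers fell (Fap, Thy1 and Pdgfrb) and 2 rose (Dpp4 and Tcf21), and 1 of the 14 adipocyte markers fell and 2 rose. Of the 11 mesothelial markers 5 rose and all 11 were higher, with a median difference of 0.79 and summed levels of 882.5 to 2021 in obese and 1529 to 2397 in formerly obese mice. No endothelial, mural, epididymis or lymph node marker was called there. The part of these cell types in the differences of the matrix genes was not tested. Hepatocyte transcripts were present at summed levels of 711.8 to 9338 in lean, 453.9 to 1335 in obese and 546.1 to 3269 in formerly obese mice. With the log2 of that sum as a covariate 16 of the 45 matrix genes rose in obese mice, where 2.11% of all probe sets rose. Col8a1, Col4a1 and Bgn no longer passed. With the covariate 22 fell in formerly obese vs obese mice, where 2.51% of all probe sets fell.

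Further genes of the matrix, listed by function with earlier results of these data known, gave the setting of the 45. In obese vs lean mice 3.93% of all probe sets rose and 2.11% fell, the shares to read beside the counts of these lists. Of 24 other collagen chains only Col28a1 was called in obese vs lean mice (0.68 ± 0.16, limma adjusted p = 0.0267), and 18 of the 24 were lower in obese mice. Of 37 other matrix proteins 2 rose (Mfap2, a microfibril protein, 0.64 ± 0.16, and Fbln2, fibulin 2, 0.48 ± 0.14) and 2 fell (Podn, the leucine-rich podocan, -1.15 ± 0.13, and Emilin2, -0.43 ± 0.11). Podn rose by 1.05 ± 0.13 in formerly obese vs obese mice (limma adjusted p = 0.00144).

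Of 19 other folding and processing enzymes 5 rose and none fell. They were Pcolce2 (1.10 ± 0.16), the transglutaminase Tgm2 (0.54 ± 0.08), the lysyl hydroxylase Plod1 (0.58 ± 0.14), the procollagen proteinase Bmp1 (0.41 ± 0.11) and the collagen chaperone Serpinh1 (0.52 ± 0.16). Of 24 matrix receptors 6 rose and none fell, among them Cd44, the hyaluronan receptor (1.58 ± 0.19), the collagen uptake receptor Mrc2 (1.66 ± 0.31), and the syndecans Sdc1 (1.08 ± 0.16) and Sdc3 (0.67 ± 0.12). Cd44 is also known from immune cells and Mrc2 from fibroblasts and macrophages.

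The 48 h of HFD called few genes of any kind. In lean-HFD vs lean mice none of the 45 was called (0.00242% of all probe sets were), and 3 had an unadjusted p under 0.05 in the limma test, as had 5.9% of all probe sets. In formerly obese-HFD vs formerly obese mice none was called (0% of all probe sets), with 7 under 0.05, as were 5.34% of all probe sets. Averaged over both histories, 1 of the 45, Col15a1, fell and none rose, against 0.0435% and 0.0121% of all probe sets. Before adjustment, 9 of the 45 had a limma p under 0.05 there, as had 2943 of the 41345 probe sets.

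Col15a1 lay at 6.74, 7.39 and 7.96 in lean-HFD mice and 5.87, 6.70 and 6.96 in formerly obese-HFD mice with HFD, against 7.50, 7.99 and 8.28 in lean and 7.08, 7.46 and 7.60 in formerly obese mice. All 6 formerly obese-HFD arrays were below all 6 formerly obese arrays, whereas lean-HFD and lean arrays overlapped. The difference was -0.56 ± 0.21 (limma adjusted p = 0.839) in lean mice and -0.83 ± 0.17 (limma adjusted p = 0.695) in formerly obese mice, and -0.70 ± 0.14 averaged over both (limma adjusted p = 0.0904). The interaction of HFD and history was -0.26 ± 0.28 (95% interval -0.84 to 0.32). The averaged call was lost in 17 of 24 fits that each left out 1 array, where the difference ran from -0.76 to -0.62 and the adjusted p from 0.0255 to 0.18.

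Of the 45, 32 were lower and 13 higher with HFD in the averaged comparison. All 5 crosslinking and processing enzymes were higher, 1 of them with an unadjusted limma p under 0.05, and none was called. Among members with small p, these were lower with HFD but not called: Col5a3 (-0.37 ± 0.11, limma adjusted p = 0.367), Nid2 (-0.30 ± 0.10), Nid1 (-0.30 ± 0.11), Col4a1 (-0.27 ± 0.10) and Col12a1 (-0.38 ± 0.15). Nid1 lay at 9.63, 10.17 and 10.62 in lean-HFD mice and 9.66, 9.85 and 9.99 in formerly obese-HFD mice. Nid2 lay at 7.63, 7.97 and 8.46 in lean-HFD mice and 7.29, 7.78 and 8.00 in formerly obese-HFD mice, and Col5a3 at 5.52, 5.95 and 6.15 in lean-HFD mice and 5.15, 5.41 and 6.13 in formerly obese-HFD mice. For each of the 3, formerly obese-HFD arrays had the lowest median of the 5 groups. Col12a1 lay at 5.04, 5.37 and 5.98 in lean-HFD mice and 4.49, 4.91 and 5.09 in formerly obese-HFD mice, and its difference of -0.64 ± 0.20 in formerly obese-HFD vs formerly obese mice passed the looser rule together with Col15a1, 2 members where 0.401% of all probe sets were lower by that rule.

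In lean-HFD vs lean mice the smallest p belonged to Lum, at 8.34, 8.78 and 9.16 in lean-HFD mice and 8.55, 9.63 and 9.94 in formerly obese-HFD mice with HFD and lower by 0.43 ± 0.14 (limma adjusted p = 0.825), followed by Col15a1 and Nid2. Col4a4, Col6a2 and Fn1 came next, with differences of -0.25 ± 0.12, -0.33 ± 0.16 and -0.17 ± 0.09. Col6a2 lay at 6.46, 6.72 and 7.32 in lean-HFD mice and 6.30, 6.67 and 7.01 in formerly obese-HFD mice. Fn1 was at 10.34, 10.50 and 10.66 in lean-HFD mice and 9.43, 10.44 and 10.69 in formerly obese-HFD mice, where formerly obese-HFD replicates 5 and 6 (9.73 and 9.43) stood below the rest. Col4a4 was at 3.94, 4.28 and 4.46 in lean-HFD mice and 4.13, 4.43 and 5.40 in formerly obese-HFD mice.

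**Figure D4:**
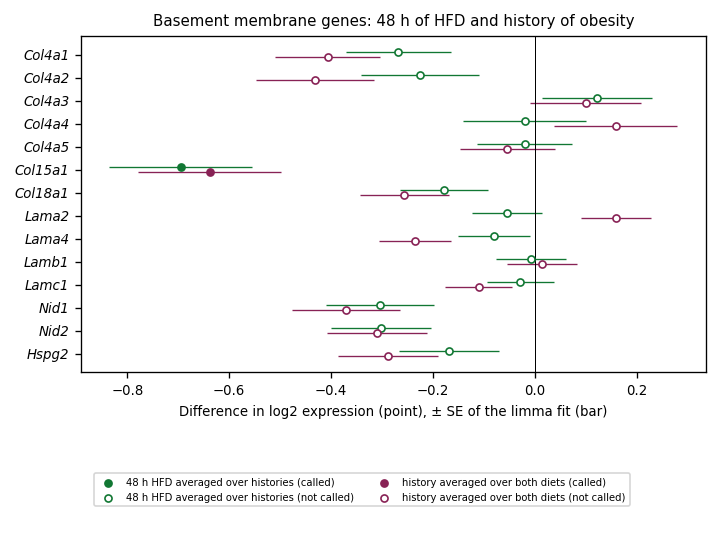
Differences in log2 expression of the 14 basement membrane genes (vertical axis) with 48 h of HFD averaged over both histories (green) and with a history of obesity averaged over both diets (purple), with points for limma estimates, bars for ± SE and filled points for called genes. Col15a1 alone is filled, at -0.70 and -0.64.

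A history of obesity was tested with and without HFD. In formerly obese-HFD vs lean-HFD mice none of the 45 was called, nor any other probe set (0%), with 12 under an unadjusted p of 0.05 in the limma test, as were 8.27% of all probe sets. By the looser rule 2 were higher (Plod2 and Lum, where 0.917% of all probe sets were) and 3 lower (Col15a1, Col12a1 and Col4a1, where 0.588% were). Averaged over both diets, Col15a1 fell with a history of obesity by 0.64 ± 0.14 (limma adjusted p = 0.064) and none rose, against 0.123% and 0.184% of all probe sets. That call was lost in 8 of 24 fits that each left out 1 array (adjusted p from 0.0314 to 0.139). Both averaged calls rest on shared arrays. Before adjustment, 22 of the 45 had a limma p under 0.05 in the averaged comparison of histories, as had 4455 of the 41345 probe sets.

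Hepatocyte transcripts also differed between these groups, with summed levels of 1046 to 21710 in lean-HFD and 650.1 to 4064 in formerly obese-HFD arrays. With the log2 of that sum as a covariate Col15a1 differed with history by -0.47 (limma adjusted p = 0.402) and was not called, nor was any other probe set. The averaged fall of Col15a1 with 48 h of HFD was still called with the covariate, where 0.0242% of all probe sets fell. The sum of 10 mural and smooth muscle markers was 3031 to 4581 in formerly obese-HFD mice and 4463 to 15490 in lean-HFD mice, and its part in the level of Col15a1 was not tested.

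Next to Col15a1 in the averaged comparison of histories came Plod2, higher by 0.38 ± 0.09 (limma adjusted p = 0.101), and Col4a1, lower by 0.41 ± 0.10 (adjusted p = 0.118). Plod2 lay at 5.87, 6.11 and 6.53 in lean-HFD mice and 6.24, 6.69 and 7.06 in formerly obese-HFD mice. Col4a1 lay at 7.04, 7.35 and 7.93 in lean-HFD mice and 6.79, 6.90 and 7.14 in formerly obese-HFD mice, so that these groups overlapped only between 7.04 and 7.14. Dcn (0.14 ± 0.04), Col4a2 (-0.43 ± 0.12) and Ogn (0.24 ± 0.07) followed, none called. Dcn lay at 11.91, 12.02 and 12.13 in lean-HFD mice and 12.04, 12.17 and 12.19 in formerly obese-HFD mice, Col4a2 at 6.18, 6.37 and 6.94 in lean-HFD mice and 5.75, 6.06 and 6.29 in formerly obese-HFD mice and Ogn at 10.48, 10.74 and 10.81 in lean-HFD mice and 10.74, 11.00 and 11.31 in formerly obese-HFD mice. By the looser rule 2 of the 45 were higher with a history of obesity (Plod2 and Lum, where 0.825% of all probe sets were) and 3 lower (Col4a1, Col4a2 and Col15a1, where 0.493% were). Of the 14 basement membrane genes 10 were lower and 4 higher with a history of obesity, with a median of -0.25, against -0.01 over all probe sets.

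**Figure D5:**
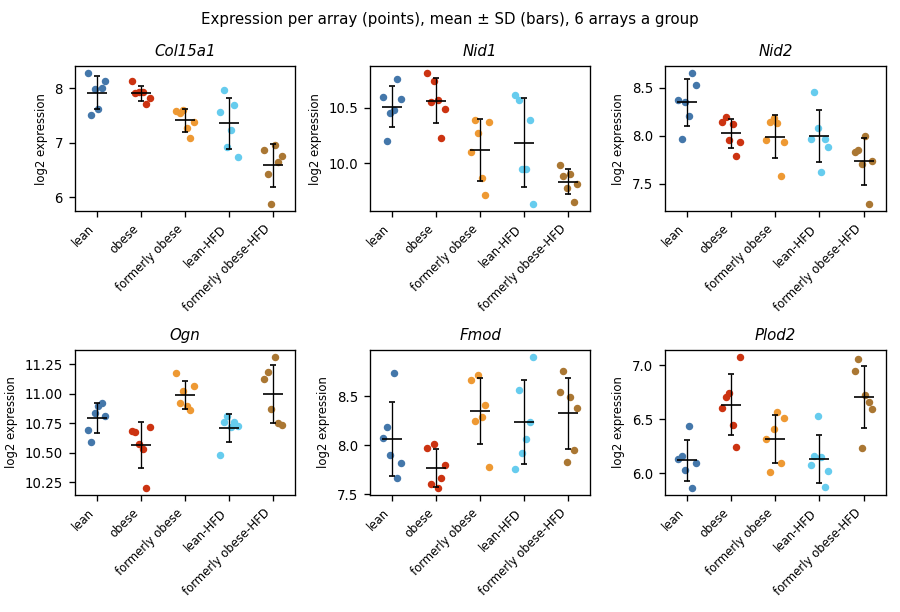
Log2 expression of 6 matrix genes (1 panel each) in each of the 30 arrays, by group along the horizontal axis, with points for arrays and bars for the mean ± SD of 6 arrays. Col15a1 has its lowest median in formerly obese-HFD mice (6.70) and Ogn its lowest in obese mice (10.62).

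No member had an interaction of HFD and history that was called, nor did any other probe set (0%). Of the 45 members 0 had an unadjusted p under 0.05 in the limma test, where 4.61% of all probe sets did, and Lamb1 had the smallest p, with an interaction of 0.28 ± 0.14. In the further matrix genes, Ecm2 was higher (0.42 ± 0.09, limma adjusted p = 0.0617) and the laminin receptor chain Itga6 lower (-0.40 ± 0.09, adjusted p = 0.0881) with a history of obesity.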

How the data were processed

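Total RNA of gonadal white adipose tissue was amplified, labelled with biotin and hybridised to Affymetrix Mouse Gene 2.0 ST arrays. The deposited log2 values per probe set were made by the authors with RMA (Affymetrix Expression Console 1.4.1.46), whose steps are background correction, quantile normalization and a summary of probes, and were used as deposited. Quantile normalization gives all arrays 1 distribution, so differences are relative to the rest of the transcriptome. Array medians lay between 4.849 and 4.971, correlations between arrays between 0.953 and 0.984, and 0 pairs were identical. The number of arrays limits the precision.

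Tests used limma 3.58.1 under R 4.3.3 (lmFit, eBayes, two-sided) on the 12 arrays of both groups, or on 24 arrays for averaged and interaction contrasts. P-values were Benjamini-Hochberg adjusted over 41345 probe sets. Of these, 23521 had exactly 1 symbol and 1820 several in the platform annotation. The fits were tested on simulated data. Start regions came from RefSeq (GRCm38.p6).

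The genes, lists and tests were chosen with earlier results of these data known. Values are printed for up to 3 called genes of each class with the largest obese vs lean difference, up to 6 genes with the smallest p in each other comparison, and genes with opposite signs against lean in obese and formerly obese mice, and up to 4 genes of each further list. Further called genes were named after their values were seen. Alternatives were 1 fit over all arrays, array weights, a filter on low probe sets, no fold and level filter and the looser rule. Others were a replicate block, median-centred arrays, another probe set per gene, a trended robust prior and single arrays left out. Chosen after seeing the data, the log2 of the summed hepatocyte level was used as a covariate.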

Additional observations from a re-analysis of the deposited data

Results flagged for a closer look

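Of 225 pairs of a matrix gene and a group, 14 had an array set apart from the other 5 by Dixon's criterion (a gap to the nearest array that takes up most of the group's range), where chance flags about 1 in 20 groups. Lean replicate 2 was low for Col3a1 (8.526 log2) and Col14a1 (6.317), and lean replicate 5 was high for Lamb1 (8.693) and Postn (9.535). Formerly obese replicate 5 was low for Col3a1 (8.339) and Col5a1 (5.710) and high for Col4a5 (5.693). Formerly obese replicate 6 was high for Lum (9.937) and Pcolce (8.223), and formerly obese replicate 2 for Tnc (5.643). Obese replicate 2 was low for Col5a1 (6.356) and obese replicate 5 for Ogn (10.198). Lean-HFD replicate 1 was low for Ogn (10.483), and formerly obese-HFD replicate 3 for Col12a1 (4.489).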

How the results depend on the processing

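No result named in the text and called changed direction under these settings. Second probe sets of 6 genes gave the other sign in 9 of 54 gene and comparison pairs (Col1a2, Col5a1, Nid1, Fmod and Bgn), 0 of them called by either probe set. In obese vs lean mice 1 matrix gene fell, Fmod, when each gene was read from its probe set with the largest difference. With the looser rule, 1 gene was lower in formerly obese vs lean mice, 2 were lower in formerly obese-HFD vs formerly obese mice, 2 were higher and 3 lower in formerly obese-HFD vs lean-HFD mice, and 2 were higher and 3 lower with a history of obesity. The history comparison, with 1 gene lower and 0 higher as reported, gave 3 lower and 1 higher in 1 fit over all arrays (0.196% and 0.319% of all probe sets), 2 lower and 1 higher with array weights (0.201% and 0.37%), 2 lower and 1 higher without low probe sets (0.225% and 0.417%), 1 higher with a trended robust prior (0.227%), and 0 lower with the hepatocyte covariate, where 0 of all probe sets were called. In formerly obese vs obese mice the fit over all arrays lost Col15a1 (adjusted p = 0.13 in limma) and Fn1. The cause was not tested.

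Replicate numbers were not taken to pair the arrays. After each group's mean was subtracted per probe set, same-numbered arrays of 2 groups correlated between -0.227 and 0.414. The mean over same-numbered arrays ran from -0.0888 to 0.0973 between pairs of groups, and over other-numbered arrays from -0.0186 to 0.0188. With the replicate block, 19 genes rose in obese vs lean mice (3.31% of all probe sets) and 23 fell and 2 rose in formerly obese vs obese mice (3.31% and 2.13%), while 0 fell with 48 h of HFD (0.00967%) and 0 with a history of obesity (0.0919%), since Col15a1 then had limma adjusted p-values of 0.16 and 0.104. Leaving out each array in turn gave 18 to 20 genes higher and 0 to 1 lower in obese vs lean mice. It gave 21 to 25 lower and 1 to 2 higher in formerly obese vs obese mice. With 48 h of HFD 0 to 1 were lower, and with a history of obesity 0 to 3 were lower and 0 to 2 higher. The share of all probe sets called was not counted in these fits.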
